A study of Rattus norvegicus with 8 samples.

Results

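The response of lean rat liver to testosterone undecanoate (TU) was read from 4 dual-colour arrays, out of 8 arrays in the series. The 4 were chosen by their titles, which name lean liver and replicates 1 to 4, and no measured value entered that choice. On each array vehicle RNA carried Cy3 and TU RNA carried Cy5, so the log2 ratio of Cy5 over Cy3 gives the response within that array. All animals were male Zucker diabetic fatty rats aged 12 weeks. The lean group was fa/+, which is heterozygous for the leptin receptor mutation, and the other 4 arrays held obese fa/fa rats, which lack a working leptin receptor. TU was given under the skin at 20 mg/kg for 4 weeks, every 3 days for the first 2 weeks and weekly afterwards, and controls received vehicle. RNA was taken from 100 mg of frozen liver, and 0.2 µg was labelled. The labels call the arrays biological replicates, and the sources used here do not state whether an RNA was pooled over animals. The p-values therefore measure the spread between arrays, with lean and obese arrays sharing the estimate. No array had its dyes exchanged, so each ratio also holds any dye preference of its probe. The lean arrays shared 1 slide and the obese arrays another, so slide and genotype cannot be told apart.

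TU is a long-acting ester that the body cleaves to testosterone. Testosterone acts on genes through a ligand-activated transcription factor and can be converted in liver to other steroids before it is inactivated by oxidation and conjugation. In the male rat the liver is also shaped by pulsatile growth hormone, whose signal passes through STAT5 and sustains sex-biased cytochrome P450 genes. Liver RNA comes from hepatocytes together with macrophages, endothelium, stellate cells and blood, and in such bulk RNA fewer cells of a type and less RNA per cell cannot be told apart.

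Promoters of 3 genes are shown because their genes answer acute signals or belong to the clock, and all 3 genes changed. Each is the stretch of 250 bases before the start site on the gene's own strand, from RefSeq (build GRCr8), in lower case with the searched motifs in capitals. The Dusp1 window lies at chr10:17184603-17184852 on the plus strand and holds TGACGTCA, the cAMP response element, and CACGTG, the E-box. The Zfp36 window lies at chr1:92799109-92799358 on the minus strand and holds a CArG box, the core of the serum response element. The Per2 window lies at chr9:99496994-99497243 on the minus strand and holds TTATGTAA, the D-box.
Dusp1: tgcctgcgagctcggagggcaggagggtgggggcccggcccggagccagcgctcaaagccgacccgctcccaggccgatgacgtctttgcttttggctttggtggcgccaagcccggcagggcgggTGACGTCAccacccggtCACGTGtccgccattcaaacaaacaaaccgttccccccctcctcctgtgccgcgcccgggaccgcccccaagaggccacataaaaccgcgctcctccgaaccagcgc
Zfp36: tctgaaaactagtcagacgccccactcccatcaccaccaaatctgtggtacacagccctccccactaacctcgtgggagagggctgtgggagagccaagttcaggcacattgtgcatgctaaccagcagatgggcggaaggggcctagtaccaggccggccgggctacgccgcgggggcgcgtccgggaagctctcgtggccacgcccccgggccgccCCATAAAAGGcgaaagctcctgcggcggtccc
Per2: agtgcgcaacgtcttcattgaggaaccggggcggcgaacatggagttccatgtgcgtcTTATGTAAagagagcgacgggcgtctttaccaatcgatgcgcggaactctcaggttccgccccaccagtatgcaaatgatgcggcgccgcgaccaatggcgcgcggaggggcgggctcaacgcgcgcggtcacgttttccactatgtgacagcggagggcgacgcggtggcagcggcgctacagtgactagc

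Both strands were searched, over all 33469 windows of that length. Percentages are of windows, while a gene counted if any of its windows matched. The androgen and glucocorticoid response element, searched as AGAACA, any 3 bases, then TGTTC, was in 12 windows (0.0359%). It was in none of the 67 higher and 35 lower named genes that had a window. Its first 6 bases alone, AGAACA, were in 5865 windows, in 13 of the 67 and in 5 of the 35. TGACGTCA was in 1.59% of windows, with Dusp1 and Ndufb2 among the higher genes and Lsm12 and Nup214 among the lower. CACGTG was in 5.59%, in 3 of the 67 and in 2 of the 35. TTATGTAA was in 0.828%, with Per2 as its only called gene. The CArG box was in 1.5%, with Egr1 and Zfp36 among the called genes. These are matches of letters, with no measure of binding.

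Of 23188 features tested (9957 of them named genes), 275 passed an adjusted p of 0.05 in the lean arrays, which is 1.19%. A feature is a gene, read by its brightest probe, or an accession where no gene name was found. TU raised 179 (0.772%) and lowered 96 (0.414%). Gene names were available for 84 of those raised and 40 of those lowered, and 151 had none. Of the 275, 65 reached 1.5-fold and 17 reached 2-fold, 11 of them higher and 6 lower. Background correction added 50 to both channels, which draws the ratios of dim probes toward 0. Sizes moved with the signals used: on the scanner's processed signals Car7 gave 2.30 in place of 0.62, and Apoa2 0.31 in place of 0.50. The sign was shared by all 4 lean arrays for 274 of the 275, and the other, Ka11, had 3 lean values of 1 sign and 1 missing. With no adjustment, 3902 features (16.8%) had a p under 0.05, 8.04% higher and 8.79% lower. Counts in the gene lists below are to be read beside these shares of all features. Lists and members were chosen with earlier results of these data known, so a larger share is no independent support.

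The count of calls moved with single arrays and with the scaling. It was 16, 8, 6 and 115 without lean replicates 1, 2, 3 and 4, and 202, 1496, 87 and 39 without obese replicates 1, 2, 3 and 4. The obese arrays enter because both genotypes shared an estimate of the spread, and the lean arrays alone gave 1003 calls. When ratios were centred on the median of each array with no correction for brightness, 154 features were higher and 2330 lower, and the median of all features was -0.11 in place of -0.01. With limma's trend and robust settings the count was 0, with 3585 features at an unadjusted p under 0.05.

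Calls were uneven across brightness. In the dimmest quartile of features 22 were called and all 22 were higher, while the brightest quartile held 56 higher and 60 lower. The filter kept a probe where either channel was above background, so a dim probe could pass through its higher channel alone. Vehicle signal was above background on 0 lean arrays for 7 called features, and TU signal for 0. What part the filter has in the direction of the dim calls was not tested. At the very top, 35 features had a mean log2 signal of 17 or more, and 33 of them were positive, with a median log2 ratio of 0.47. Of these 35, 12 were called, all higher, and the median was 0.48 with median centring and 0.32 on the scanner's processed signals. No called feature was saturated on a lean array, and 256 of the 275 were above background in both channels on all 4. What part brightness has in these ratios was not tested.

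**Figure D1:**
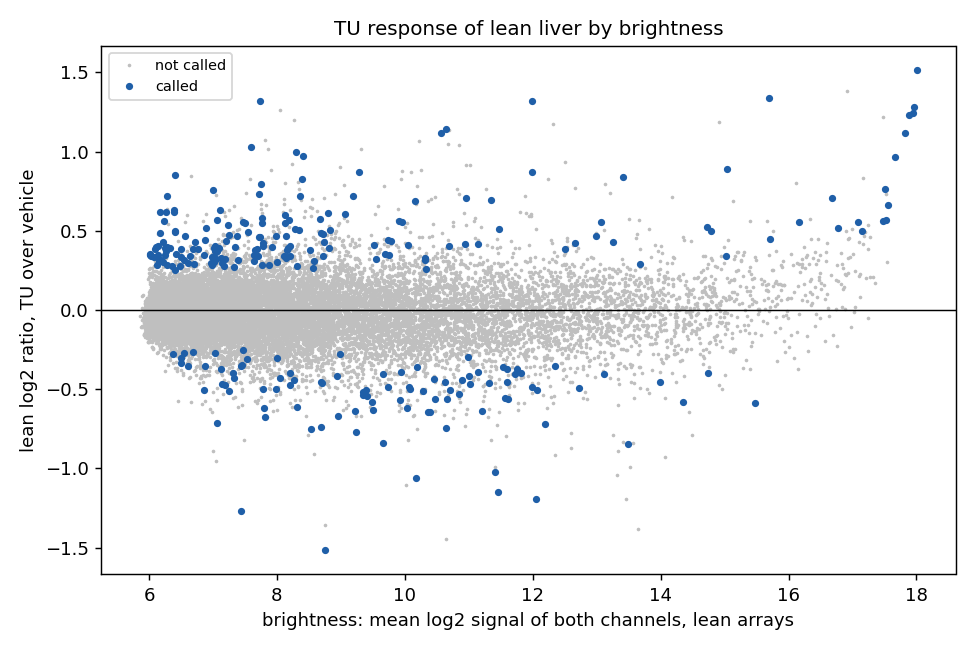
Lean log2 ratio of TU over vehicle (vertical axis) against brightness, the mean log2 signal of both channels over the lean arrays (horizontal axis), for the 23188 features tested. The 275 called features are in blue; those above a brightness of 17 lie above 0, and the dimmest called features are mostly higher.

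Regulators of transcription, message decay and kinase signalling changed in both directions. Egr1, Dusp1, Zfp36 and Klf9 rose, and Sgk1, Sgk2, Tsc22d1 and Per2 fell. Egr1, Zfp36, Sgk2 and Tsc22d1 were chosen after their values were seen. Egr1 (an immediate-early zinc finger transcription factor) read 1.40, 1.06, 1.26 and 1.55 on lean replicates 1 to 4. All 4 lean arrays were more than 2-fold up, for a log2 ratio of 1.32 ± 0.20 (limma SE, n = 4, limma adjusted p = 0.0271). Every SE given here and below comes from the spread that both genotypes share. Its size therefore depends on the obese arrays too, and it is not the spread of the lean arrays alone. In obese liver its ratios were -0.01, 1.24, -0.06 and -0.01, so a single obese array reached the lean range. Dusp1, the phosphatase that switches off MAP kinases, read 1.13, 1.27, 1.501 and 0.20, and lean replicate 4 was low while the other three lay close. Its mean was 1.03 ± 0.20 (n = 4; limma adjusted p = 0.0477). Zfp36 (tristetraprolin, which marks AU-rich messages for decay) rose by 0.44 ± 0.07 (limma adjusted p = 0.0310).

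Klf9, a zinc finger factor that glucocorticoid and thyroid hormone induce, read 0.53, 0.83, 0.89 and 0.52 and rose by 0.69 ± 0.09 (limma adjusted p = 0.0213). Its second probe had a lean mean of 0.38, of the same sign. Sgk1, the kinase named for its induction by serum and glucocorticoid, fell: its ratios were -0.60, -1.14, -0.89 and -0.34, with a mean of -0.74 ± 0.11 (limma adjusted p = 0.0271). Its relative Sgk2 fell on all 4 lean arrays as well, with a mean of -1.02 ± 0.17, but a second Sgk2 probe read -0.19 and the mean over both probes was -0.61. Tsc22d1, a leucine zipper protein induced by TGF-beta, read -1.66, -1.71, -0.76 and -0.66. Replicates 1 and 2 were the lower pair, the mean was -1.20 ± 0.18 (limma adjusted p = 0.0271) and its second probe had a mean of -1.25.

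Per2, which represses the circadian clock's activators, had the lowest ratio of the 124 called named genes. It read -1.35, -1.83, -1.21 and -0.69, for a mean of -1.27 ± 0.21 and a 2.41-fold lower level (limma adjusted p = 0.0321). In obese liver Per2 read -0.89, -0.13, 0.29 and -0.59, with no shared sign. Per2 was the only called gene among 23 measured clock and clock-output genes, whose median was -0.01. Other members named by rule gave 0.05 ± 0.08 for Per1, 0.18 ± 0.25 for Nr1d1 and -0.14 ± 0.26 for Dbp.

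Of these 8 regulators, 0 kept their call when lean replicate 1, 2 or 3 was left out (limma adjusted p up to 0.221), while 6, 7, 8, 4 and 0 kept it without lean replicate 4 and obese replicates 1, 2, 3 and 4. With median centring Klf9 (0.46, adjusted p = 0.101 by limma) and Zfp36 (0.25) were no longer called, and on processed signals all 8 were called, with Per2 at -2.11, Dusp1 at 1.63 and Zfp36 at 0.82. With every probe tested on its own Dusp1 missed the threshold (limma adjusted p = 0.0502).

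**Figure D2:**
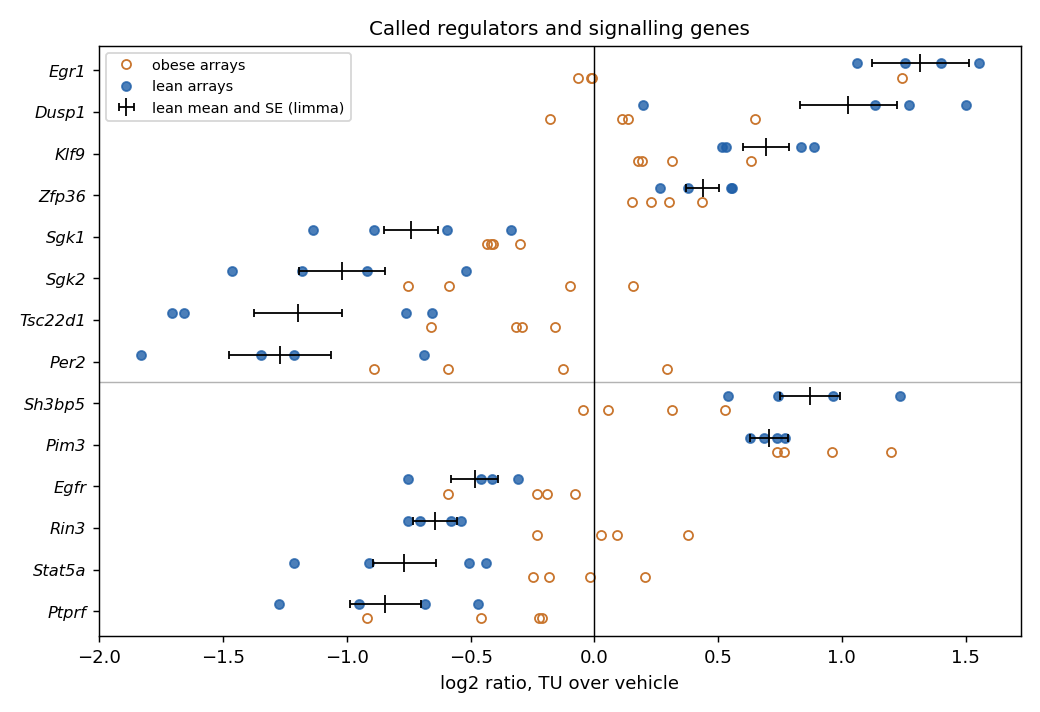
Log2 ratio of TU over vehicle (horizontal axis) for the called regulators (upper block) and signalling genes (lower block). Blue points are the 4 lean arrays, open orange points the obese arrays, and black marks the lean mean with its standard error; lean replicates of Egr1 lie between 1.06 and 1.55, and those of Per2 between -1.83 and -0.69.

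Among 29 measured genes known to answer androgen or glucocorticoid, 10.3% were called, beside 1.19% of all features. This share is a description, since the members were chosen with earlier results of these data known. Of these 29 genes Klf9 and Dusp1 rose, Sgk1 fell and 26 were not called. Their median was 0.10 against -0.01 for all features, and it was -0.01 with median centring and 0.27 on processed signals. Cdkn1a, the cell cycle inhibitor p21, came closest among those not called, at 0.95, 0.69, 1.02 and 0.15 (adjusted p = 0.0575 by limma). Among the glucocorticoid targets not called, Fkbp5 gave 0.02 ± 0.09, Tsc22d3 (GILZ) 0.36 ± 0.16 and Tat, tyrosine aminotransferase, -0.13 ± 0.26. Tsc22d3 was uneven, with 0.87 and 0.57 on replicates 1 and 4 and 0.05 and -0.04 on replicates 2 and 3. Nr3c1, the glucocorticoid receptor, gave -0.10 ± 0.12. Igfbp1, which binds insulin-like growth factors, spread from -0.21 to 1.51 over the lean arrays, with replicates 1 and 2 high (0.61 ± 0.27, limma adjusted p = 0.302). Krüppel-like factors gave 1 call, Klf9, among 11 measured, and Klf11 read 0.35 ± 0.09 (limma adjusted p = 0.114).

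Signalling genes showed 1 clear common feature in both genotypes, Pim3, a serine/threonine kinase. It read 0.63, 0.74, 0.68 and 0.77 in lean liver, a narrow range, with a mean of 0.71 ± 0.08 (limma adjusted p = 0.0103). In obese liver it read 0.77, 1.20, 0.96 and 0.74 and was also called (adjusted p = 0.0121 by limma), among 12 features called there (0.0516%). Stat5a, a carrier of the growth hormone signal, fell in lean liver: -1.22, -0.91, -0.51 and -0.44, with a mean of -0.77 ± 0.13 (limma adjusted p = 0.0327). Its obese ratios lay between -0.25 and 0.20, above all 4 lean values.

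Ptprf and Egfr fell, and both were chosen after their values were seen. Ptprf, a receptor tyrosine phosphatase, read -1.27, -0.95, -0.68 and -0.47 and fell by 0.84 ± 0.14 (limma adjusted p = 0.0358). Egfr, the epidermal growth factor receptor, fell by 0.48 ± 0.09 (limma adjusted p = 0.0496). Its second probe had a mean of -0.17, and the mean over probes was -0.33 (limma adjusted p = 0.0941). Rin3, a regulator of Rab5, fell on all 4 arrays, between -0.75 and -0.54 (mean -0.64 ± 0.09, limma adjusted p = 0.0218). Sh3bp5, a mitochondrial protein that binds the kinase JNK, rose by 0.87 ± 0.12 (limma adjusted p = 0.0218), with its second probe at 0.42.

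Leaving out lean replicate 1, 2 or 3 removed all 6 of these signalling calls (limma adjusted p up to 0.194), and 5, 5, 6, 3 and 2 held without lean replicate 4 and obese replicates 1, 2, 3 and 4. On the scanner's processed signals Pim3 and Sh3bp5 were the 2 that held, and with median centring Pim3 was the 1 that did not (0.46, limma adjusted p = 0.0608). Among 48 measured genes of growth hormone, leptin and STAT signalling Pim3 was the higher call and Stat5a the lower, with 46 not called and a median of -0.03. Stat3 gave 0.28 ± 0.07 (limma adjusted p = 0.0819), Ghr 0.26 ± 0.06 (0.0894), Igf1 -0.20 ± 0.10 (0.387) and Lepr -0.10 ± 0.12 (0.750).

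Enzymes that oxidize or conjugate steroids, drugs and retinoids rose where they were called. Of 96 measured drug metabolizing enzymes 5 were higher and 0 lower, which is 5.21% called beside 1.19% of all features. Ugt2b, Ugt2a3, Fmo2 and Aldh1a1 were among the 5. The median of the list was 0.10, with 64 members above 0, and it was -0.07 with median centring. Fmo2, a flavin monooxygenase chosen after its values were seen, rose by 0.52 ± 0.10 (limma adjusted p = 0.0449), and on processed signals by 1.05. Ugt2a3, a glucuronidating enzyme, read 0.58, 0.89, 0.34 and 0.57 (mean 0.60 ± 0.09, limma adjusted p = 0.0255).

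Ugt2b, of the family that glucuronidates androgens, read 0.40, 0.57, 0.34 and 0.48, and its second probe had a mean of 0.37. It rose by 0.45 ± 0.06 (limma adjusted p = 0.0218) and was called in obese liver too, at 0.66 (adjusted p = 0.0130 by limma), though members of this family are near-identical and a probe may read several. Aldh1a1, which makes retinoic acid and was also chosen after its values were seen, rose by 0.51 ± 0.09 (limma adjusted p = 0.0421). Hsd17b13, a lipid droplet protein of the hydroxysteroid dehydrogenase family, read 0.63, 0.35, 0.41 and 0.31 and rose by 0.43 ± 0.06 (limma adjusted p = 0.0262). Among 36 measured genes of steroid conversion and conjugation, Ugt2b and Hsd17b13 were the 2 calls, both higher, and the median was 0.07 (-0.16 with median centring).

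Not called in that list were Srd5a1, the 5-alpha-reductase that makes dihydrotestosterone, at -1.06, -1.03, -0.55 and -0.55 (limma adjusted p = 0.0639), and Cyp17a1, which makes androgen precursors, at 0.49 ± 0.10 (limma adjusted p = 0.0592). Srd5a1 was negative on all 8 arrays, with a mean of -0.80 in lean and -0.77 in obese liver. Hsd11b1, which regenerates active glucocorticoid, gave 0.34 ± 0.11 with replicate 1 at 0.76, and Hsd3b5 gave 0.23 ± 0.05 (limma adjusted p = 0.0703). Without lean replicate 1, 2 or 3, 0 of these 5 enzyme calls held (limma adjusted p up to 0.195), and 3, 3, 5, 3 and 0 held without lean replicate 4 and obese replicates 1, 2, 3 and 4. Of the 5, median centring kept Ugt2a3 and processed signals kept Fmo2.

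Sex-biased liver genes gave 1 call, near the share of all features, 1.19%, for lists of this size. Of 21 measured male-biased genes 0 were called, and their median was 0.13 (0.01 with median centring). At an unadjusted p under 0.05, 6 of the 21 were higher and 1 lower, beside 8.04% higher and 8.79% lower among all features. Cyp2c11, the main male-specific P450 of rat liver, read 0.03, 0.21, 0.16 and 0.28 (limma adjusted p = 0.268), and its obese ratios lay between -0.45 and -0.06, below all 4 lean values. Cyp3a2 gave 0.15 ± 0.13 and Cyp2a2 0.09 ± 0.19, with both signs among the lean arrays, and Mup4 0.44 ± 0.11 (limma adjusted p = 0.0930). Of 22 female-biased genes 1 was called higher, and Cyp2c12, the female-specific P450, gave -0.18 ± 0.09 (limma adjusted p = 0.377). A1bg gave -0.27 ± 0.05 (limma adjusted p = 0.0520), but its TU channel was well above background on 0 of the 4 lean arrays.

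The plasma proteins Ambp, Rbp4, Vtn and Apoa2 rose and Afp, a fetal one, fell. Of 28 measured carriers Ambp, Rbp4 and Vtn were higher and Afp lower, which is 14.3% called beside 1.19% of all features. The median of the carriers was 0.14 (0.02 with median centring). Ambp, the precursor of alpha-1-microglobulin and bikunin, read 0.46, 0.72, 0.74 and 0.74 in lean and 0.71, 0.44, 0.80 and 0.73 in obese liver. The 2 genotypes overlapped and both were called, at 0.66 ± 0.07 in lean (limma adjusted p = 0.0103) and 0.67 in obese liver (0.0403). Rbp4, the plasma carrier of retinol, read 0.34, 0.72, 0.46 and 0.74, and Vtn, vitronectin, read 0.45, 0.69, 0.55 and 0.52. Their means were 0.56 ± 0.09 and 0.55 ± 0.09 (limma adjusted p = 0.0310 for both). Apoa2, an apolipoprotein of HDL chosen after its values were seen, rose by 0.50 ± 0.10 (limma adjusted p = 0.0490).

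Ambp, Rbp4, Vtn and Apoa2 are among the 35 brightest features, whose median was 0.47, and what part brightness has in their rise was not tested. On processed signals Ambp was the 1 plasma protein that stayed called, and Rbp4 gave 0.43 (limma adjusted p = 0.113), Vtn 0.42 (0.0939) and Apoa2 0.31 (0.175). With every probe tested on its own Apoa2 missed the threshold (limma adjusted p = 0.0516). Afp, alpha-fetoprotein, is dimmer and went the other way, at -0.77, -0.58, -0.40 and -0.26 in lean liver (mean -0.50 ± 0.09, limma adjusted p = 0.0358) and 0.32, 0.52, 0.17 and 0.31 in obese liver. Of the 5 plasma protein calls 1, 0 and 0 held without lean replicates 1, 2 and 3 (limma adjusted p up to 0.221), and 2, 3, 5, 1 and 1 without lean replicate 4 and obese replicates 1, 2, 3 and 4.

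Acute phase proteins had a median of 0.22, with 26 of 31 above 0. It was 0.33, 0.27, 0.19 and 0.19 on lean replicates 1 to 4, 0.22 with median centring and 0.17 on processed signals. Ambp was the single call, 11 were higher and 2 lower at an unadjusted p under 0.05, and Serpina3n gave 0.45 ± 0.10 (limma adjusted p = 0.0639) and Kng1, kininogen, 0.44 ± 0.10 (0.0732). Tfrc, the transferrin receptor, gave -0.44 ± 0.11 (limma adjusted p = 0.0900), and Hamp, hepcidin, 0.29 ± 0.17 (0.419). Complement and coagulation genes, 48 measured, gave 0 calls in limma, 7 higher and 4 lower at an unadjusted p under 0.05, and a median of 0.01, with C1r at -0.40 ± 0.08 (limma adjusted p = 0.0569). The 12 hepatocyte markers were all measured and above background in both channels on the 4 lean arrays. Their median was 0.16, and it varied from -0.02 to 0.22 between lean arrays. Very bright features were mostly positive: 75 of the 91 with a mean log2 signal of 16 to 17 were, with a median of 0.20. Ambp is brighter still. What part brightness has in the medians of the acute phase proteins and hepatocyte markers was not tested.

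The globins Hbb-b1 and Hbe2 rose. Hbb-b1, a beta-globin, read 0.98, 1.04, 1.74 and 1.58 in lean liver and rose 2.52-fold (log2 1.34 ± 0.19, limma adjusted p = 0.0220). All lean arrays were near or above 2-fold, while the obese arrays read 0.20, -0.01, 1.15 and 0.35. Hbe2, an embryonic-type beta-globin, rose by 0.79 ± 0.08 (limma adjusted p = 0.00760), with lean ratios from 0.53 to 1.00 and obese ratios from 0.06 to 0.29. Hba-a3 and Hbb were chosen after their values were seen. Hba-a3, an alpha-globin among the brightest features, read 0.82, 1.06, 1.43 and 1.57 and just missed the threshold (1.22 ± 0.24, limma adjusted p = 0.0510). A further beta-globin, Hbb, gave 0.83 ± 0.40 (limma adjusted p = 0.340). Globin genes are near-identical copies, so probes for them may read each other's RNA.

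All 9 measured erythroid markers were above 0 in lean liver, with 1 call (Hbb-b1), a median of 0.11 (0.42 on processed signals) and a range of 0.05 to 1.34. Alas2, the erythroid enzyme of haem synthesis, read 1.07, 0.67, 1.30 and 1.14 but had a wide spread in obese liver, from -1.54 to 0.57, and was not called (limma adjusted p = 0.102). Ahsp, which stabilizes alpha-globin, gave 0.30 ± 0.09 (limma adjusted p = 0.128). Gata1 and Hemgn were not above background in both channels on all 4 lean arrays. What part blood cells have in the globin ratios was not tested.

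Cd52, a surface glycoprotein of lymphocytes and macrophages, was chosen after its values were seen and rose by 0.83 ± 0.14, from 0.43 to 1.38 (limma adjusted p = 0.0351). Lymphocyte markers gave 0 calls among 13 in limma, with 1 higher and 3 lower at an unadjusted p under 0.05. Of the 3 calls of this section, Hbb-b1, Hbe2 and Cd52, 1, 1, 0 and 1 held without lean replicates 1, 2, 3 and 4 (limma adjusted p up to 0.152), and 3, 3, 2 and 1 without obese replicates 1, 2, 3 and 4. All 3 held with median centring and on processed signals.

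Carriers of solutes gave 1 higher and 3 lower calls among 231 measured, and their median was -0.01. Outside that list, Mfsd2a, which carries lysophosphatidylcholine with polyunsaturated fatty acids and was chosen after its values were seen, read 1.77, 1.33, 0.50 and 0.97 and rose 2.21-fold (log2 1.14 ± 0.18, limma adjusted p = 0.0310); its second probe had a mean of 0.58. In obese liver it read -0.52, -0.44, 0.13 and -0.14, with no overlap. Slc16a6, a monocarboxylate carrier, fell on the probe used, at -0.79, -0.88, -0.78 and -0.25 (mean -0.68 ± 0.10, limma adjusted p = 0.0262). A second Slc16a6 probe had a mean of 0.16, and the mean over both was -0.26 (limma adjusted p = 0.0840). Slc38a7, an amino acid carrier, and Slc26a1, a sulfate carrier, fell by 0.47 ± 0.06 and 0.46 ± 0.05 (limma adjusted p = 0.0133 and 0.0197). Slc26a1 had no value on obese replicate 4.

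Slc37a4, which brings glucose-6-phosphate into the endoplasmic reticulum, read 0.30, 0.82, 0.55 and 0.42 and rose by 0.52 ± 0.09 (limma adjusted p = 0.0394), with 0.53 in obese liver. It was the single call among 56 measured genes of glucose production and uptake, of which 9 were higher and 1 lower at an unadjusted p under 0.05, with a median of 0.01. Pck1, the gatekeeper of glucose production, read 1.29, 1.58, 0.50 and 0.36 (0.93 ± 0.25, limma adjusted p = 0.112). Replicates 1 and 2 had the larger ratios, and obese liver showed no shared sign, with a mean of -0.06. Alpl, tissue-nonspecific alkaline phosphatase, fell by 0.47 ± 0.06 (limma adjusted p = 0.0197), and Car7, a carbonic anhydrase, rose by 0.62 ± 0.07 (0.0111), or by 2.30 on processed signals.

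Amino acid breakdown and the urea cycle gave 1 call among 67, Glud1, glutamate dehydrogenase. It read 0.39, 0.36, 0.17 and 0.43 in lean liver (0.34 ± 0.06, limma adjusted p = 0.0449) and 0.71, 0.88, 0.65 and 0.63 in obese liver, where it was also called (0.0121). Here the obese arrays were the higher, with no overlap. Its 2 other probes had lean means of -0.14 and -0.07, and the mean over probes was 0.04 (limma adjusted p = 0.863), so the probes disagree. Ahcy, which hydrolyses S-adenosylhomocysteine, gave 0.56 ± 0.13 (limma adjusted p = 0.0787). Of the 8 calls among these carriers and enzymes, 0 held without lean replicate 1, 2 or 3 (limma adjusted p up to 0.193), and 5, 6, 8, 5 and 4 held without lean replicate 4 and obese replicates 1, 2, 3 and 4. Median centring ended the calls of Slc37a4 and Glud1, and processed signals left Car7, Slc38a7, Alpl and Mfsd2a.

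**Figure D3:**
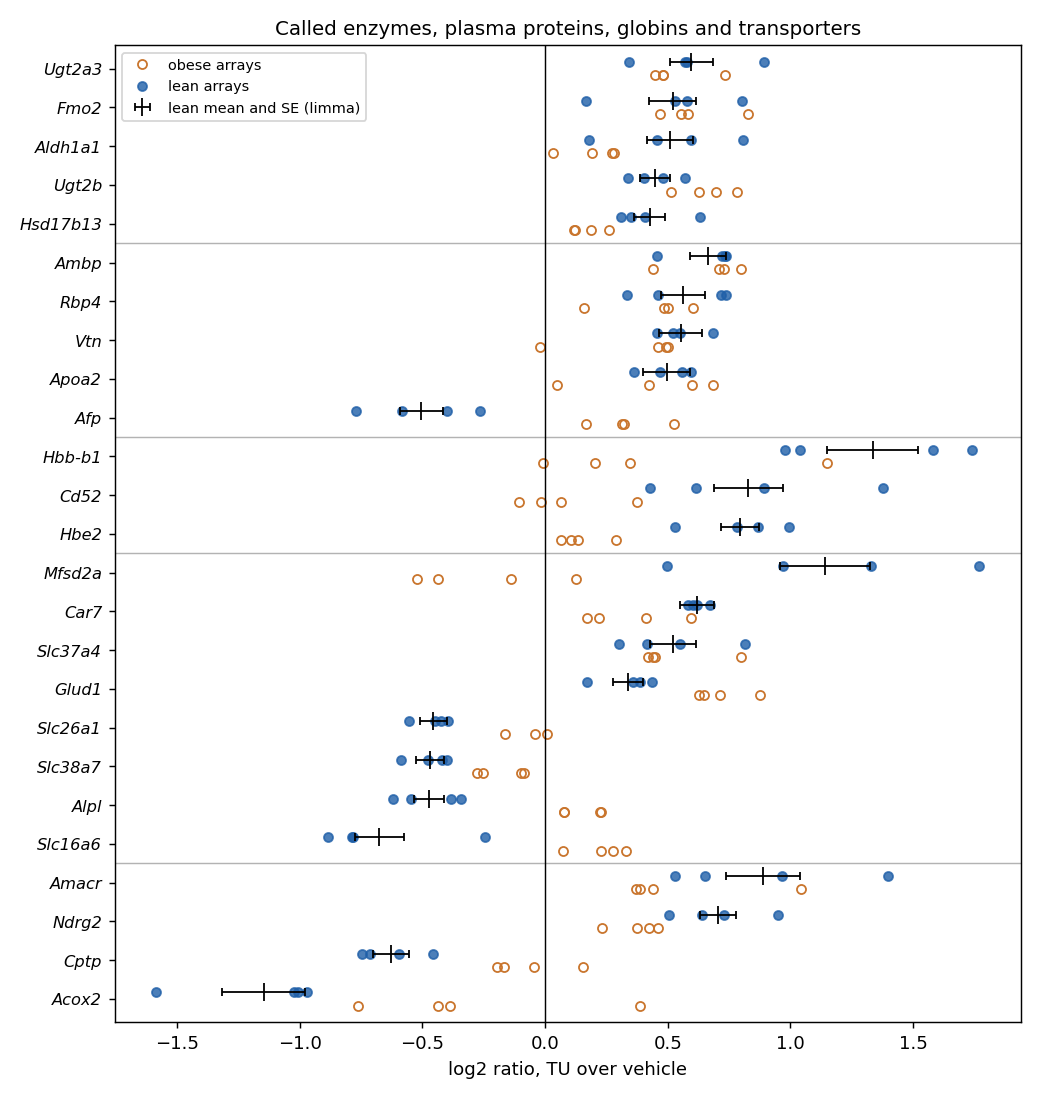
Log2 ratio of TU over vehicle (horizontal axis) for called genes in 5 blocks: steroid and drug enzymes, plasma proteins, globins with Cd52, transport and metabolism, and lipid handling with Ndrg2. Blue points are the lean arrays, open orange points the obese arrays, and black marks the lean mean and standard error; all 4 lean values of Hbe2 lie above its obese values, and Afp, Alpl and Slc16a6 lie below 0 in lean and above 0 in obese liver.

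Bile acid genes gave 1 call in each direction among 32 measured, and both act on the same branched side chain. Acox2, the peroxisomal oxidase that shortens it, read -1.59, -0.97, -1.02 and -1.01 and fell 2.21-fold (log2 -1.15 ± 0.17, limma adjusted p = 0.0262). Replicate 1 was lower than the other three, and the obese arrays spread from -0.76 to 0.39. Amacr, the racemase that prepares the side chain, read 0.65, 1.40, 0.96 and 0.53 and rose by 0.89 ± 0.15 (limma adjusted p = 0.0358), with a second probe at 0.68 and an obese mean of 0.56. The median of the list was -0.03. Cptp, which moves ceramide-1-phosphate between membranes, fell by 0.63 ± 0.07 (-0.60, -0.75, -0.71 and -0.46; limma adjusted p = 0.0119), with obese ratios from -0.19 to 0.16.

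Ndrg2, a stress-responsive gene that androgen is known to induce in some tissues, read 0.51, 0.95, 0.64 and 0.73 in lean liver and rose by 0.71 ± 0.07 (limma adjusted p = 0.0103). Its obese ratios were 0.23, 0.42, 0.46 and 0.38, all positive and all below the lean ones. Of these 4 calls, 1, 0 and 0 held without lean replicates 1, 2 and 3 (limma adjusted p up to 0.157), and 2, 3, 4, 3 and 2 without lean replicate 4 and obese replicates 1, 2, 3 and 4. Median centring ended the call of Amacr (adjusted p = 0.0592 by limma), and processed signals kept Ndrg2 and Acox2.

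Interferon-induced genes leaned downward. Of 51 measured, 45 were below 0 and 6 above, the median was -0.16, and 14 were lower against 1 higher at an unadjusted p under 0.05, beside 8.79% lower and 8.04% higher among all features. Ifitm3, an antiviral membrane protein, was the 1 call: it read -0.66, -1.07, -0.51 and -0.75 and fell by 0.75 ± 0.11 (limma adjusted p = 0.0294). Ifitm1 gave -0.52 ± 0.11 (limma adjusted p = 0.0703) and the immunoproteasome subunit Psmb9, with no value on obese replicate 4, -0.49 ± 0.09 (0.0553). The median of the list was -0.06, -0.43, -0.14 and -0.17 on lean replicates 1 to 4, so replicate 2 was the lowest, and in obese liver it was -0.23. Antigen presentation genes, 40 measured, gave 0 calls in limma, 0 higher and 6 lower at an unadjusted p under 0.05, and a median of -0.07.

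Markers of macrophages and Kupffer cells were mostly below 0, with no call. Of 13 measured, 12 were below 0, with a median of -0.16 and a range of -0.47 to 0.13, and 0 were called in limma, with 3 lower and 0 higher at an unadjusted p under 0.05. Their median was 0.04, -0.26, -0.20 and -0.28 on lean replicates 1 to 4. Cd68 gave -0.40 ± 0.09, Aif1 -0.47 ± 0.11 and Adgre1, the F4/80 antigen, -0.33 ± 0.08 (limma adjusted p = 0.0734, 0.0790 and 0.0830). What part these cells have in the interferon ratios was not tested. With median centring the interferon median was -0.34 and the macrophage median -0.32, beside -0.11 for all features. That setting does not correct for brightness. Under it, features of mean log2 brightness below 7 had a median of -0.01. Those of 7 to 8, 8 to 10 and 10 to 12 had medians of -0.21, -0.28 and -0.28, nearer to the medians of these 2 lists. On processed signals the interferon median was -0.29 and the macrophage median -0.23, beside -0.03 for all features.

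Housekeeping genes gave scattered calls, with 1 in each list of proteasome, cytosolic ribosomal protein and respiratory chain genes. Those were 2.17%, 1.37% and 1.39% of the members measured, near the 1.19% called among all features. Psma1, a subunit of the 20S proteasome, fell by 0.37 ± 0.07 (limma adjusted p = 0.0449). It was the 1 call among 46 proteasome subunits, 11 of which were lower and 2 higher at an unadjusted p under 0.05, with a median of -0.03. Rpl29 fell by 0.40 ± 0.06 (limma adjusted p = 0.0310) as the 1 call among 73 cytosolic ribosomal proteins, whose median was 0.0008, but its 3 other probes had means of -0.10, -0.25 and -0.13 and the mean over probes was -0.22 (limma adjusted p = 0.131). Lsm12, an RNA-binding protein, fell by 0.37 ± 0.05 (limma adjusted p = 0.0220).

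Ndufb2, of respiratory complex I, rose by 0.50 ± 0.08 (limma adjusted p = 0.0351), with 0.51 in obese liver, as the 1 call among 72 genes of the respiratory chain and ATP synthase (median 0.02). Genes of the endoplasmic reticulum stress and amino acid response, 39 measured, gave 0 calls in limma, 4 higher and 10 lower at an unadjusted p under 0.05, and a median of -0.11. The ubiquitin ligase Syvn1 gave -0.51 ± 0.11 (limma adjusted p = 0.0647) and Pdia4, a disulfide isomerase, -0.51 ± 0.11 (0.0705). Of the 5 calls of Ifitm3 and these housekeeping genes, 0 held without lean replicate 1, 2 or 3 (limma adjusted p up to 0.193), and 2, 4, 5, 2 and 0 held without lean replicate 4 and obese replicates 1, 2, 3 and 4. On processed signals 0 of the 5 held (limma adjusted p up to 0.309), and median centring ended the call of Ndufb2.

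Several lists gave 0 calls in limma. These were nuclear hormone receptors (33 measured), cell cycle and replication genes (62), NRF2 targets and antioxidant enzymes (64), heat shock proteins (49), extracellular matrix genes (54), mitochondrial ribosomal proteins (63) and iron and haem genes (40). With 1.19% of all features called, 0 calls is near that share for lists of this size. At an unadjusted p under 0.05 these lists gave 3 higher and 2 lower, 6 and 2, 10 and 6, 2 and 4, 3 and 7, 4 and 9, and 4 and 4. The shares of all features were 8.04% higher and 8.79% lower. The medians of these lists lay between -0.06 and 0.03. Of 71 lysosome and autophagy genes 1 was lower, Rin3.

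**Figure D4:**
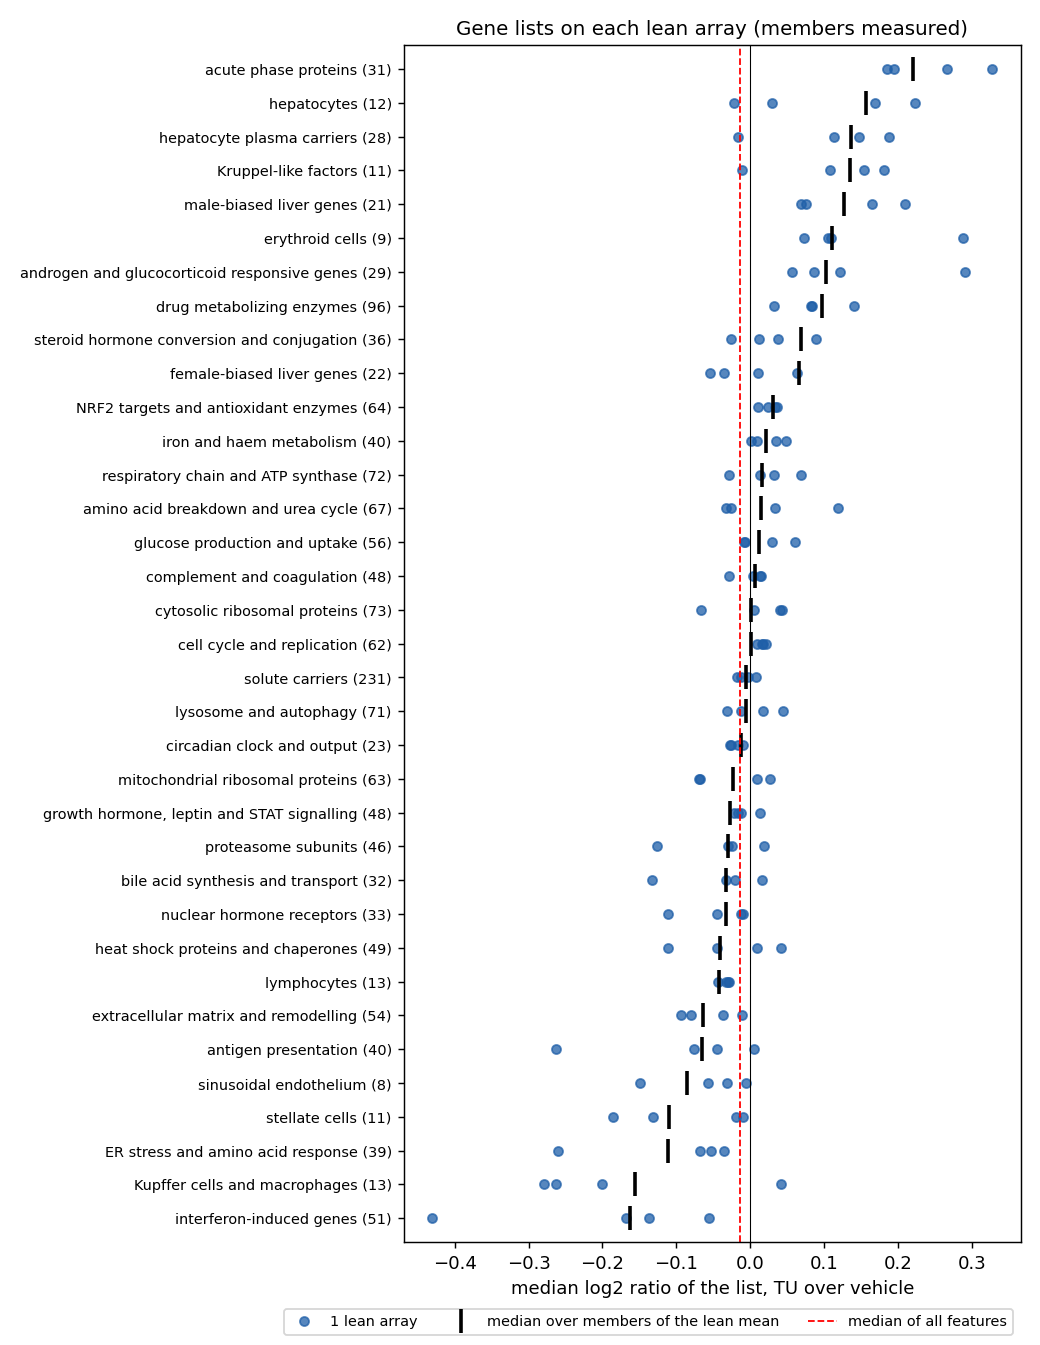
Median log2 ratio of TU over vehicle (horizontal axis) of each gene list with 8 or more measured members, the number in brackets. Blue points are single lean arrays, black bars the median over members of the lean mean and the red dashed line the median of all features, -0.01; acute phase proteins are at the top with 0.22 and interferon-induced genes at the bottom with -0.16.

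Genes best known from other tissues were among the calls. Their mean log2 brightness ran from 6.24 for Lrfn1 to 9.92 for Npy, apart from Foxe1 at 16.2, beside a median of 7.02 for all features. Or4f14d and Or8g36b, odorant receptors, rose by 0.51 ± 0.07 and 0.32 ± 0.05 (limma adjusted p = 0.0213 and 0.0255). The neuropeptide genes Hcrt (orexin) and Npy (the latter chosen after its values were seen) rose by 0.40 ± 0.06 and 0.56 ± 0.10, and the milk protein gene Csn2 by 0.40 ± 0.06. Foxe1, a thyroid transcription factor, rose by 0.56 ± 0.08, Gldn, a protein of nodes of Ranvier, by 0.30 ± 0.04, and Lrfn1, a synaptic adhesion protein, by 0.39 ± 0.05. Each passed in limma with an adjusted p between 0.0218 and 0.0374, and each was positive on all 4 lean arrays. Wdr45, an autophagy protein, and C19h1orf131 rose by 0.44 ± 0.06 and 0.43 ± 0.06. With median centring both gave 0.17 (limma adjusted p = 0.336 and 0.239). Neither was called there or on processed signals. Leaving out lean replicate 1, 2 or 3, or the fourth obese one, ended both calls, and that of Wdr45 ended also when lean replicate 4 was left out, or obese replicate 3.

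The odorant receptors were then counted as a family, chosen after their values were seen. Of 212 measured, 7 were called, all higher, beside 0.772% called higher among all features. Of the 212, 172 were above 0, and 188 were dimmer than the median feature. The median was 0.06, against -0.01 for all features, and it was 0.05 with median centring and 0.24 on processed signals. Since TU RNA was always in Cy5, the part of the dye in these ratios cannot be told apart from TU. Of the 8 named genes of other tissues, 0 held without lean replicate 1, 2 or 3 (limma adjusted p up to 0.157), and 1, 7, 8, 6 and 1 without lean replicate 4 and obese replicates 1, 2, 3 and 4. With median centring Foxe1 and Lrfn1 were the 2 that held, and on processed signals Hcrt (0.68), Lrfn1 (1.74) and Csn2. Or8g36b gave 0.63 there. The 6 that did not hold with median centring gave between 0.06 for Gldn and 0.31 for Npy.

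The 275 features were chosen on the lean arrays, so their obese ratios are a description. The obese mean had the lean sign for 243 and the opposite sign for 32. The median size was 0.45 in lean liver and 0.16, in the lean direction, in obese liver. All lean arrays lay beyond all obese arrays, in the lean direction, for 135 of the 275. In either direction, 6.32% of all features tested had no overlap. These counts cannot be compared, since the 275 were chosen for lean ratios far from 0 beside their spread. Of the 12 features called in obese liver 6 were also called in lean, among them Pim3, Ambp, Ugt2b and Glud1. Pairs of lean arrays had a mean correlation across features of 0.418, pairs of obese arrays 0.284, and the SD of the ratios was 0.465 on obese replicate 2 against 0.151 to 0.256 on the other seven.

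The test of the difference itself called 0 features (0%) in limma, with 2247 (9.69%) at an unadjusted p under 0.05. Among the named genes with the smallest unadjusted p, obese minus lean was 0.62 ± 0.09 for Alpl, 0.84 ± 0.12 for Afp, 0.90 ± 0.14 for Slc16a6 and -0.65 ± 0.11 for Hbe2. For Alpl the adjusted p was 0.236 by limma. Alpl read -0.55, -0.62, -0.34 and -0.38 in lean and 0.08, 0.22, 0.23 and 0.08 in obese liver, so that all 4 lean arrays were below 0 and all 4 obese arrays above it. The same held for Afp and Slc16a6. None of these differences passed the threshold after adjustment over all features.

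**Figure D5:**
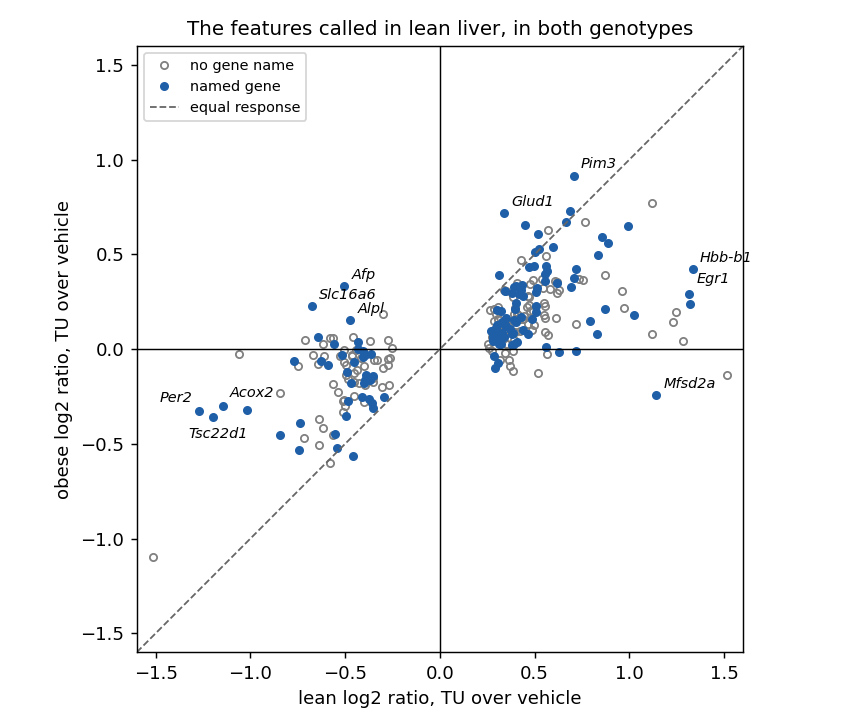
Lean (horizontal axis) against obese (vertical axis) log2 ratio of TU over vehicle for the 275 features called in lean liver, named genes filled and others open. Most points lie nearer to 0 on the obese axis than the dashed line of equal response; Pim3 and Glud1 lie above it, and Afp, Alpl and Slc16a6 have opposite signs.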

How the data were processed

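Each array held 45018 spots, 1639 of them controls. Per the file headers, the authors scanned 2-colour arrays and extracted them with Feature Extraction 10.7.3.1, which gave median spot and background intensity, processed intensity and log10 ratios for each spot. The deposited flags (of type other) mark spots above background, uneven or saturated. The ratios in the authors' deposited series file matched log2 of TU over vehicle, since its slope on the scanner's log10 ratio was 3.33 to 3.38 and its column medians were 0.0462 to 0.14.

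Local backgrounds that the scanner marked as outlying, up to 11323 on lean replicate 3 and 65529 on obese replicate 3, were replaced, a step chosen after seeing the signals. Median signals were background corrected (normexp, offset 50), loess normalized within arrays and fitted with limma 3.58.1 in R 4.3.3 (with the data.table package, 1.17.8), with 1 mean per genotype and a shared spread. A probe was kept (26964 of 41012) where 4 or more of the 8 arrays had it above background for vehicle or TU. The brightest probe stood for a gene, and Benjamini-Hochberg adjustment at 0.05 defined a call. On lean arrays 62.9% to 69.5% of spots were above background for vehicle and 54.3% to 58.2% for TU. The small number of arrays limits precision. Accessions came from 2 versions of the array annotation, and RefSeq gave the gene names for them as well as the promoters. Through the newer version 16815 probes were named, through the older only 195, and 24002 probes had no single gene name. This gave 13458 genes. Every sample column was mapped (0 left out).

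Genes were named by rule: the 30 called named genes with the smallest p, up to 3 per list, a fixed set, and the 5 with the smallest p for the difference between genotypes. Members and lists were chosen with earlier results of these data known, so lists are described by counts and medians. Some genes that the rule names are not reported here. Replicate numbers did not pair the arrays: correlations of same-numbered deviations between genotypes were 0.0663, -0.117, 0.0804 and -0.0167. The fit was run on simulated ratios with independent normal noise. These held no dye or brightness effect, so that run cannot speak to those limits. Alternatives covered centring, background, filters, probes, spread and each array left out.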

Additional observations from a re-analysis of the deposited data

Results flagged for a closer look

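Over 136 groups of 4 lean arrays examined, 7 had an array beyond Dixon's 95% limit, and chance marks about 1 in 20. Ambp read 0.4555 on lean replicate 1, against 0.72 to 0.74 on the others. Acox2 read -1.5855 on lean replicate 1, against -1.02 to -0.97. Ghr read 0.4599 and Hsd11b1 0.7585 on that same array, against 0.15 to 0.21 and 0.17 to 0.25. On lean replicate 4, Slc16a6 read -0.2453, against -0.88 to -0.78, and A1bg read -0.4049, against -0.23 to -0.22. The median of the endoplasmic reticulum stress and amino acid response list was -0.26 on lean replicate 2, against -0.07 to -0.04 on the other arrays.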

How the results depend on the processing

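The 275 lean calls became 2484 when centred on array medians, 712 when ratios were scaled, 1003 from the lean arrays alone, 1576 with array weights, 34 with a replicate block (28 shared), 48 with the outlying backgrounds kept (46 shared; added after seeing the data), 0 with trend and robust settings (3585 at an unadjusted p under 0.05) and 6 to 1496 with an array left out. The other alternatives gave 206 to 336. The 0 calls for obese minus lean became 1 on processed signals, on the authors' ratios and with outlying backgrounds kept, 4 with array weights and 0 to 2 with an array left out. Of 2132 values of 97 genes, over 22 settings, 12 changed sign, none of a called gene, and 489 lost and 111 gained a call; the cause was not tested. The reversals were, with median centring, Fkbp5 (-0.2465), Per1 (-0.0121), Cyp2a2 (-0.1379) and Nr1d1 (-0.0862); on processed signals and the authors' ratios, Fkbp5 (-0.019); with the mean of probes, Ghr (-0.0208) and Nr3c1 (0.0699); with an array left out, Cyp3a2 (-0.0014 to 0.2971, lowest without lean replicate 1) and Fkbp5 (-0.0501 without lean replicate 4, -0.0009 without lean replicate 3, up to 0.1246); and with outlying backgrounds kept, Fkbp5 (-0.0083). Of 39 list medians, 15 changed sign with median centring and 7 on processed signals. Signal over background limits dim probes: 7 called features, all unnamed, had no lean array with vehicle signal above background.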
